A study of Mus musculus with 15 samples.

Results

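The genes described here are 55 genes of DNA replication and S phase, chosen by name for their roles in copying the genome, and all 55 had a probe set that names only that gene among the 19938 such genes of the array. A filter on dim signal kept 16883 genes and 54 of the 55. The gene left out was E2f2, an E2F transcription factor, whose log2(intensity + 16) lay between 6.38 and 6.79 on the 15 arrays. These genes were read in 5 populations of cells sorted from mouse pancreas, with n = 3 arrays a group. At e10.5, e15.5 and p23 the cells of high EGFP signal came from Sox9-EGFP mice, and at e15.5 EGFP+ cells also came from Ngn3-EGFP mice. The remaining group was the EGFP- fraction of the Sox9-EGFP pancreas at p23. All groups are labelled as CD1 in background, and embryos came from reporter males and wild-type CD1 females. The cell types that express each reporter limit what a sort stands for, and no gate against blood cells is named. Animals were pooled for each sort, and the labels do not say whether the 3 arrays of a group came from separate pools. A p-value here therefore measures the spread between arrays, which may be technical.

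Before S phase the origin recognition complex, Cdc6 and Cdt1 load the ring of Mcm2 to Mcm7 onto DNA, and geminin (Gmnn) blocks Cdt1 so that an origin fires once per cycle. The kinase Cdc7 with its partner Dbf4, together with cyclin-dependent kinases, then lets Cdc45 and the GINS complex join the ring as the active helicase. DNA polymerases copy both strands on a sliding clamp, while ribonucleotide reductase and thymidylate synthase supply the building blocks. Transcription of many of these genes is driven by E2F factors as cells leave G1, so their transcripts are widely read as a sign of cycling cells. In the pancreas Sox9 marks dividing progenitors of the embryo and later the ducts, and Ngn3 marks cells that start endocrine differentiation and are known to leave the cycle.

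Values are log2(intensity + 16) of the deposited array signal, changes are differences of group means on that scale with the standard error from limma, and calls were made where the Benjamini-Hochberg adjusted p was below 0.05. The number of arrays limits the precision of every change. Arrays of a group correlated at 0.933 or more over all genes tested. The duct and progenitor markers, Sox9 among them, were called higher in Sox9-GFP+ than GFP- cells at p23 in 6 of 6 tested, with Sox9 at 11.62, 11.94 and 12.10 and 10.08, 9.81 and 8.68. The sorts were not pure in their transcripts. The summed intensity of 13 leukocyte markers was 59796 to 93365 on the GFP- arrays, 2035 to 4391 on the Sox9-GFP+ arrays at p23 and 1138 to 1807 on the 9 embryonic arrays. Ptprc, the common leukocyte antigen, stood at 14.28, 14.41 and 14.64 on the GFP- arrays, against 8.12, 10.64 and 10.09 on those of Sox9-GFP+ cells at p23. The embryonic globin Hbb-y gave 10.48, 11.20 and 6.05 at e10.5 in Sox9-GFP+ cells, and its e15.5 values there were 9.98, 5.93 and 6.35, so that 3 arrays lay above 9 and the other 12 at 6.35 or below. Summed acinar markers reached 43869 to 51221 in Sox9-GFP+ cells at p23 and 55399 to 59017 in GFP- cells.

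Replication transcripts were highest in the embryonic Sox9-GFP+ cells and lower in each of the other 3 groups. The mean over the 54 genes was 9.78, 9.72 and 9.52 on the 3 Sox9-GFP+ arrays at e10.5 and 9.90, 9.74 and 9.89 at e15.5. On the Ngn3-GFP+ arrays it was 8.99, 8.76 and 8.91, on the Sox9-GFP+ arrays of p23 8.85, 8.73 and 9.07, and on the GFP- arrays 8.46, 8.51 and 8.77. No array of the last 3 groups reached the lowest embryonic Sox9-GFP+ array. Of the 54 genes, 38 had their highest group mean in Sox9-GFP+ cells at e15.5, 14 at e10.5, 2 in Sox9-GFP+ cells at p23 and 0 in Ngn3-GFP+ or GFP- cells. The lowest group mean was in GFP- cells for 38 genes, in Sox9-GFP+ cells at p23 for 9, in Ngn3-GFP+ cells for 6 and at e10.5 for 1. The order of group means was not counted over all genes. Every GFP- array lay below every embryonic Sox9-GFP+ array for 48 of the 54 genes, against 30.1% of all genes tested. The same held for 42 genes in Sox9-GFP+ cells at p23 and 42 in Ngn3-GFP+ cells, against 23% and 11.7%. For 31 of the 54 genes every array of the 3 lower groups lay below every embryonic Sox9-GFP+ array, which held for 5.62% of all genes tested. In bulk RNA a smaller share of cells in S phase and less transcript per cycling cell cannot be told apart.

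**Figure D1:**
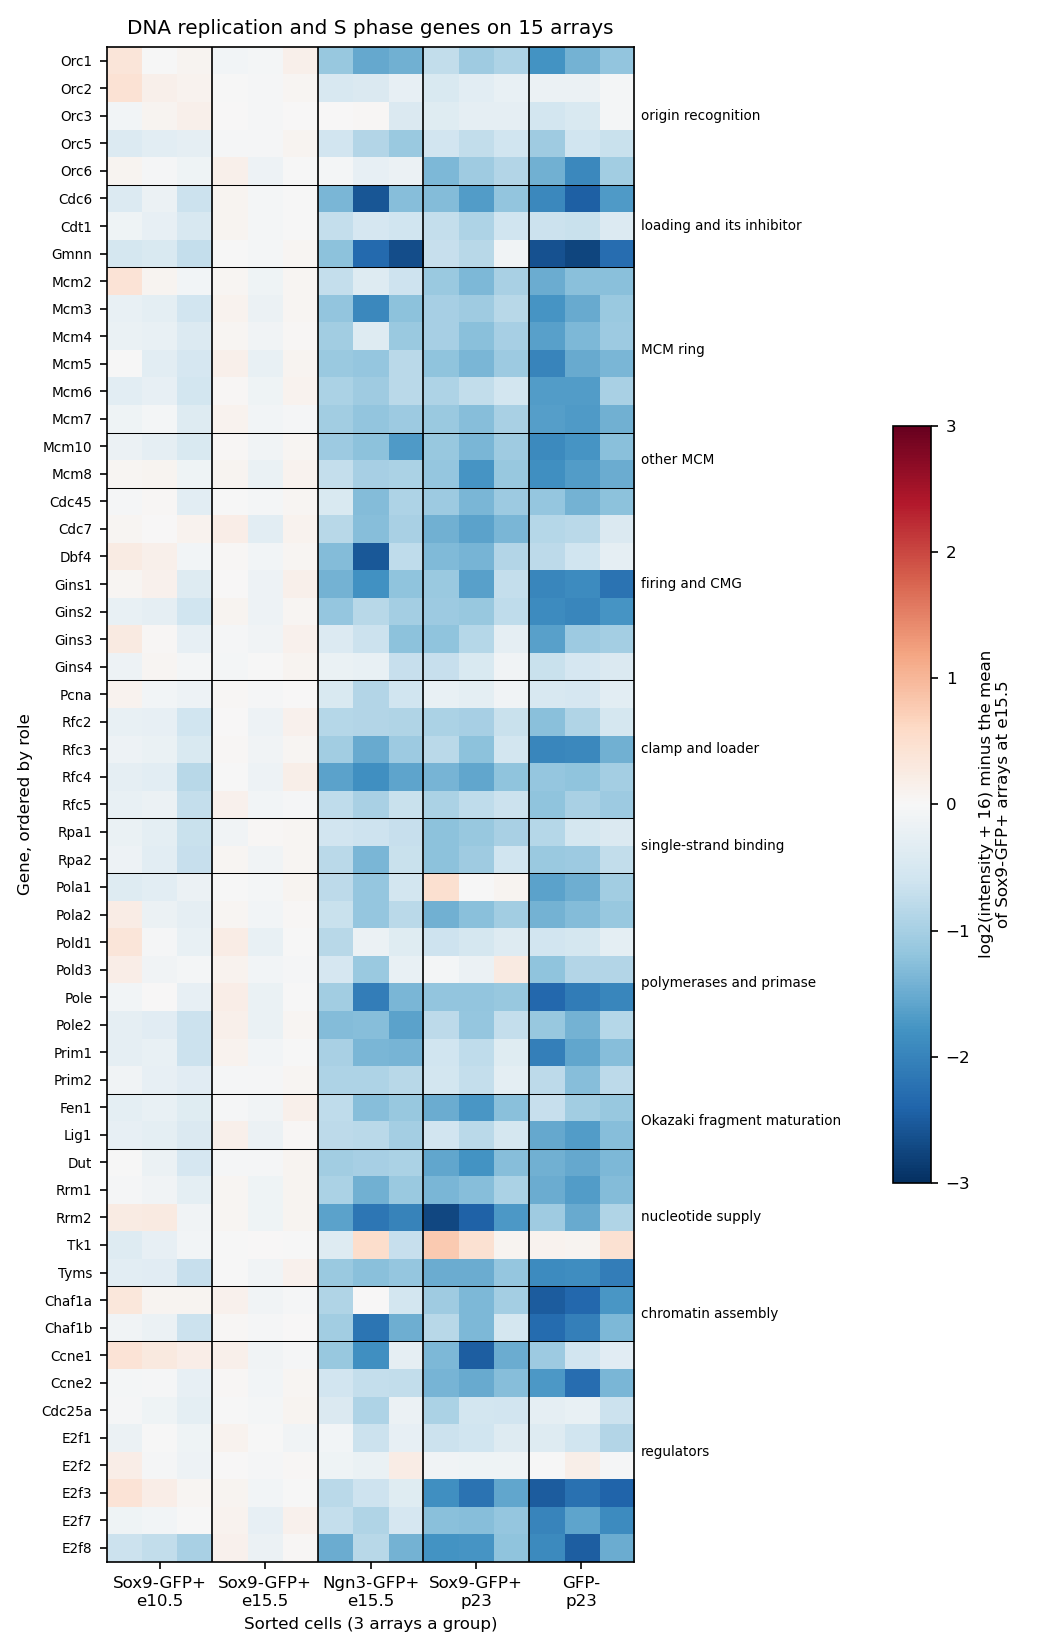
Each row is a gene, ordered by role, each column an array, and the colour is log2(intensity + 16) minus the gene's mean in Sox9-GFP+ cells at e15.5, from blue for lower to red for higher. Most rows are near white in the 6 embryonic Sox9-GFP+ arrays and blue in the other 9. Tk1 is red or pale in both p23 groups, and Pola1 is so in Sox9-GFP+ cells at p23 but blue in GFP- cells.

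A letter pattern that the choice by name did not use was more frequent near the start sites of these genes than of others, though most of them lacked it. RefSeq promoters (GRCm38.p6, 250 bases before to 50 bases after the start) were available for 46 of the 55 genes. They were searched on both strands for the E2F site written as TTTCCCGC, TTTGGCGC, TTTGCCGC or TTTCGCGC, a search added after the array values had been seen. A match was found for 20 of the 46 genes (43.5%), for 21.4% of 56 other pathway genes, for 3.93% of 13292 genes tested with a promoter and for 2.6% of all 27025 genes of the promoter table. Among windows at least as rich in G and C as the median window of these genes (61.8%), the share was 33.3% of theirs and 4.34% of those of all genes tested. The stretches below are shown because they hold a match before the start of a gene described further on, and were picked after their values were seen. Each is written 5′ to 3′ on the strand of its gene, with the match in capitals.
Mcm7: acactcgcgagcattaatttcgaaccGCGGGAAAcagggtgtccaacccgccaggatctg
Mcm6: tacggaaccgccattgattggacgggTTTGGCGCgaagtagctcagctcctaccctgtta
Mcm5: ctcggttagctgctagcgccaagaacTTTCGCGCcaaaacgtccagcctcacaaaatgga
Cdc6: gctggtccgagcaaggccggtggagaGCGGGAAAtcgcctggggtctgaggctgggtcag
Orc1: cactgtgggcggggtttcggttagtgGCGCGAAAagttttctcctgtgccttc
Pola1: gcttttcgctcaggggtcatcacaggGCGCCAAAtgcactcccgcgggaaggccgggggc
E2f3: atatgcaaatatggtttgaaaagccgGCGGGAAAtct
The stretch of Mcm7, a ring subunit, is chr5:138172015-138172074 on the minus strand and its match begins 165 bases before the start. That of Mcm6 is chr1:128359719-128359778, minus strand, beginning 47 bases before the start, and that of Mcm5 is chr8:75109330-75109389, plus strand, 153 bases before. Mcm6 also has matches that begin 110 and 106 bases before the start, outside the stretch shown. In Mcm5 the letters after the capitals complete a further match, TTTGGCGC on the other strand, that overlaps the first. The stretch of Cdc6, the loading factor, is chr11:98907987-98908046 on the plus strand, with the match 138 bases before the start. That of Orc1, a subunit of the origin recognition complex, is chr4:108579401-108579453, plus strand, 27 bases before the start. Pola1, the catalytic subunit of DNA polymerase alpha, has its stretch at chrX:93632260-93632319 on the minus strand, 138 bases before the start, and E2f3 at chr13:29986064-29986100, minus strand, 11 bases before. The CCAAT letters were in 56.5% of these genes against 41.5% of genes tested, but among the windows rich in G and C in 33.3% against 31.3%. The letters TTTGAA of the cell cycle homology region were in 18.5% of their promoter windows (a gene can have several), in 13.2% of the windows of genes tested and in 66.7% of 15 windows of a mitosis list. Among the windows rich in G and C they were in 14.8% of theirs (4 of 27) and 5.23% of those of genes tested. A match describes the letters and is not a measured binding site.

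Which replication genes changed from e10.5 to e15.5 among Sox9-GFP+ cells? Few passed the test. limma called 3 of the 54 genes higher and 0 lower, against 28.2% of all genes called, 12.2% higher and 16% lower. The 3 were Rfc4, a subunit of the clamp loader, Tyms, thymidylate synthase, and E2f8, an atypical E2F that represses. Rfc4 had values of 9.50, 9.45 and 8.95 on the e10.5 arrays and 9.76, 9.63 and 9.95 on those of e15.5. It rose by 0.48 ± 0.15 (adjusted p = 0.0335). Tyms stood at 11.05, 11.03 and 10.70 and then at 11.37, 11.26 and 11.50, a rise of 0.45 ± 0.13 (adjusted p = 0.0223). E2f8 stood at 9.34, 9.22 and 8.99 and then at 10.09, 9.80 and 10.01, and rose by 0.79 ± 0.24 (adjusted p = 0.0293), 1.72-fold. In all 3 genes every e15.5 array lay above every e10.5 array.

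For 25 of the 54 genes the e15.5 arrays all lay above the e10.5 arrays and for 2 they all lay below, against 26.1% and 31.2% of all genes, and the median change was 0.21 against -0.05 over all genes. Gmnn, at 9.86, 9.93 and 9.68 and then at 10.38, 10.33 and 10.45, was among those without overlap but was not called (0.56 ± 0.28, adjusted p = 0.141). Orc2 and Ccne1 were the 2 with all e15.5 arrays below, and neither was called (Orc2 -0.23 ± 0.11, adjusted p = 0.133, Ccne1 -0.30 ± 0.34, adjusted p = 0.517). None of the 3 calls was kept without each array in turn. Rfc4 was not called without Sox9-GFP+ e10.5 replicate 2 or 3 or Sox9-GFP+ e15.5 replicate 1 or 2 or 3 (0.30 to 0.55, adjusted p from 0.0519 to 0.164). Tyms was not called without Sox9-GFP+ e10.5 replicate 3 or Sox9-GFP+ e15.5 replicate 1 or 3 (0.34 to 0.46, adjusted p from 0.0503 to 0.112). E2f8 was not called without Sox9-GFP+ e10.5 replicate 2 or 3 or Sox9-GFP+ e15.5 replicate 1 or 2 or 3 (0.69 to 0.87, adjusted p from 0.0555 to 0.119). Median centring of each array, after which the all-gene median was 0.11 and not -0.05, gave 8 genes called higher and 0 lower, and changed the counts over all genes from 2060 higher and 2694 lower to 2775 and 988. Rfc4 and E2f8 lost their calls with quantile normalization (adjusted p = 0.0794 and 0.0685), which called 1 gene higher and 1 lower. A fit of these 2 groups alone, without the spread of the other groups, called 15 genes higher and 1 lower (27.8% and 1.85%). It called 21.4% of all genes higher and 21.9% lower.

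How did the replication genes of Sox9-GFP+ cells differ between e15.5 and p23? Most were lower at p23. limma called 48 of the 54 genes lower and 0 higher, against 57.5% of all genes called, 26.8% lower and 30.7% higher. The median change was -1.04 against 0.05 over all genes. In limma's test against a 1.5-fold change (treat) 20 of the 54 genes were lower (37%), against 5.92% of all genes. For 51 genes every p23 array lay below every e15.5 array and for 1 above, against 34.1% and 38.7% of all genes. Median centring moved the median of all genes to -0.11 and the counts over all genes from 5184 higher and 4530 lower to 3561 and 5484, and called 50 of the 54 genes lower. Marker lists moved as well between these stages. All 8 endocrine markers fell (median -3.75), from summed intensity of 28388 to 38121 to 2697 to 5558. Of the leukocyte markers 10 of 13 were higher at p23, and of the endothelial markers 7 of 8 were higher and 1 lower. Of the acinar markers 2 of 6 were higher and 2 lower, with sums of 18560 to 26073 at e15.5 and 43869 to 51221 at p23. The part of these cells in the result was not tested.

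Of the 5 origin recognition subunits 4 fell. Orc6 fell by 1.09 ± 0.18 (adjusted p = 0.000322) and Orc1 by 0.91 ± 0.17 (adjusted p = 0.000605). Orc5 fell by 0.63 ± 0.14 and Orc2 by 0.33 ± 0.11, while Orc3 was not called (-0.30 ± 0.14, adjusted p = 0.0872). Orc3 had values of 10.57, 10.51 and 10.57 on the e15.5 arrays and 10.19, 10.28 and 10.28 on those of p23. Its groups did not overlap, but its change was among the smallest of the list.

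Of the loading factors, Cdc6 was at 9.23, 9.47 and 8.99 at e10.5, 9.72, 9.58 and 9.63 at e15.5 and 8.35, 7.96 and 8.45 at p23. It fell by 1.39 ± 0.29 (adjusted p = 0.00131), 2.62-fold, and its p23 arrays lay below all embryonic Sox9-GFP+ ones. Cdt1 stood at 8.31, 8.21 and 7.97, then at 8.54, 8.38 and 8.44 and at 7.73, 7.52 and 7.86, and fell by 0.75 ± 0.13 (adjusted p = 0.000337). Geminin, the inhibitor of Cdt1, did not pass the test. Gmnn stood at 9.69, 9.56 and 10.27 at p23 against 10.38, 10.33 and 10.45 at e15.5, and its change was -0.55 ± 0.28 (adjusted p = 0.109). The p23 arrays of Gmnn were all below those of e15.5, with the third close to them.

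All 6 subunits of the Mcm2 to Mcm7 ring fell. Mcm2 was at 10.22, 9.90 and 9.72 at e10.5, 9.88, 9.69 and 9.87 at e15.5 and 8.69, 8.47 and 8.83 at p23, and fell by 1.15 ± 0.15 (adjusted p = 2.86e-05) between the last 2. Mcm3 stood at 9.99, 9.91 and 9.64, then 10.31, 10.02 and 10.27 and then 9.19, 9.13 and 9.37, with a fall of 0.97 ± 0.20. Mcm4 stood at 10.55, 10.52 and 10.33, then 10.82, 10.64 and 10.78 and then 9.75, 9.50 and 9.76, with a fall of 1.08 ± 0.18. In these subunits the p23 arrays lay apart from both embryonic Sox9-GFP+ groups. Mcm5 stood at 10.00, 9.69 and 9.50, then 10.15, 9.77 and 10.07 and then 8.78, 8.62 and 8.91, and had the largest fall of the ring (1.23 ± 0.18). Mcm6 stood at 11.02, 11.10 and 10.78, then 11.37, 11.19 and 11.44 and then 10.41, 10.60 and 10.78, and had the smallest (0.74 ± 0.18). Mcm7 stood at 10.86, 10.92 and 10.59, then 11.09, 10.91 and 10.95 and then 9.88, 9.72 and 10.02, and fell by 1.11 ± 0.12 (adjusted p = 7.4e-06), 2.16-fold. The highest p23 array of Mcm6 reached the lowest e10.5 array, unlike those of the other 5. Mcm10, which links the helicase to polymerase alpha, fell by 1.19 ± 0.18 and Mcm8, a helicase of recombination repair, by 1.35 ± 0.17.

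All 7 genes of origin firing and the active helicase fell, from 0.41 ± 0.16 for Gins4 to 1.47 ± 0.16 for the kinase Cdc7. Its partner Dbf4 fell by 1.20 ± 0.32, Cdc45 by 1.19 ± 0.18, Gins1 by 1.15 ± 0.22 and Gins2 by 0.99 ± 0.14. Both subunits measured of the single-strand binding protein RPA fell, Rpa1 by 1.12 ± 0.14 and Rpa2 by 0.97 ± 0.20. Of the clamp and its loader, Rfc4 fell the most, by 1.38 ± 0.15 (adjusted p = 7.86e-06), with arrays at 8.39, 8.23 and 8.56 at p23. The loader subunits Rfc2, Rfc3 and Rfc5 fell by 0.86 ± 0.17, 0.86 ± 0.19 and 0.79 ± 0.15. The clamp itself was not called. Pcna was at 12.49, 12.31 and 12.25 at e10.5, 12.42, 12.37 and 12.41 at e15.5 and 12.18, 12.11 and 12.28 at p23, and changed by -0.21 ± 0.12 (adjusted p = 0.148). Its p23 arrays were all below those of e15.5 and overlapped those of e10.5.

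Of the 8 polymerase and primase genes 6 fell. Pola2, the regulatory subunit of polymerase alpha, fell by 1.25 ± 0.16 (adjusted p = 2.75e-05) and Pole, the catalytic subunit of polymerase epsilon, by 1.17 ± 0.20 (adjusted p = 0.000381). Its second subunit Pole2 fell by 0.89 ± 0.17 and the primase subunits Prim1 and Prim2 by 0.58 ± 0.19 and 0.51 ± 0.14. Pola1 and Pold3 did not pass the test. Pola1 had values of 10.30, 10.26 and 10.39 on the e15.5 arrays and 10.79, 10.30 and 10.41 on those of p23 (0.19 ± 0.18, adjusted p = 0.376), and its groups overlapped. Pold3, an accessory subunit of polymerase delta, stood at 10.38, 10.19 and 10.23 and then at 10.21, 10.08 and 10.53 (0.01 ± 0.19, adjusted p = 0.97), with overlapping groups as well.

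Fen1, the flap nuclease of Okazaki fragments, fell by 1.49 ± 0.16 (adjusted p = 6.3e-06) and Lig1, the ligase that joins them, by 0.64 ± 0.13 (adjusted p = 0.00152). The chromatin assembly factor subunits Chaf1a and Chaf1b fell by 1.15 ± 0.22 and 0.91 ± 0.29. Of the nucleotide supply genes Rrm2, the S phase subunit of ribonucleotide reductase, had the largest fall of the 54. Rrm2 was at 10.65, 10.66 and 10.30 at e10.5, 10.45, 10.28 and 10.48 at e15.5 and 7.68, 7.99 and 8.69 at p23, a fall of 2.28 ± 0.23 (adjusted p = 3.55e-06) or 4.87-fold. The p23 arrays of Rrm2 spread over 1 log2 unit and all lay below the embryonic Sox9-GFP+ ones. Dut, which removes dUTP, fell by 1.54 ± 0.14, Tyms by 1.38 ± 0.13 and Rrm1 by 1.20 ± 0.15.

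All 7 regulators tested fell. E2f3, an E2F that activates, had values of 10.02, 9.84 and 9.93 on the e15.5 arrays and 8.10, 7.71 and 8.38 on those of p23, and fell by 1.87 ± 0.16 (adjusted p = 9.84e-07). Ccne1, cyclin E1, which drives the entry into S phase, was at 8.94, 8.82 and 8.72 at e10.5, 8.68, 8.41 and 8.48 at e15.5 and 7.18, 6.06 and 7.03 at p23, and fell by 1.77 ± 0.34 (adjusted p = 0.000838). Ccne2 stood at 9.07, 9.09 and 8.88, 9.15, 9.04 and 9.17 and 7.72, 7.60 and 7.84, and fell by 1.40 ± 0.17 (adjusted p = 2.39e-05). Both cyclins were below every embryonic Sox9-GFP+ array at p23. Of the repressor E2Fs, E2f7 stood at 8.68, 8.73 and 8.80, 8.92, 8.57 and 8.94 and 7.55, 7.53 and 7.65, and E2f8 at 8.18, 8.20 and 8.77 at p23. E2f7 fell by 1.23 ± 0.14 and E2f8 by 1.58 ± 0.24. E2f1, another activator, stood at 8.62, 8.79 and 8.68, 8.90, 8.80 and 8.70 and 8.16, 8.20 and 8.40 and had the smallest fall of the 7 (0.54 ± 0.15, adjusted p = 0.00911). Cdc25a, a phosphatase that activates cyclin-dependent kinases, fell by 0.69 ± 0.18. E2f2 was at 6.79, 6.54 and 6.43 at e10.5, 6.59, 6.53 and 6.61 at e15.5, 6.44, 6.38 and 6.79 in Ngn3-GFP+ cells, 6.46, 6.45 and 6.45 at p23 and 6.58, 6.76 and 6.54 in GFP- cells, too dim to be tested.

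The genes with an E2F match at their promoter did not have the larger median fall, and this difference was not tested. From e15.5 to p23 the median change was -0.86 over the 19 tested genes with a match and -1.17 over the 26 without, and 16 and 24 of them were called lower. In Ngn3-GFP+ cells the medians were -0.87 and -0.97. Between the p23 sorts, described below, the matched genes had the larger median, 0.49 with 9 higher and 0 lower in Sox9-GFP+ cells, against 0.12 with 4 higher and 5 lower. Leaving out 1 array at a time kept 42 of the 48 calls in every case. Gins3 was not called without Sox9-GFP+ e15.5 replicate 3 or Sox9-GFP+ p23 replicate 1 or 2 (-0.73 to -0.56, adjusted p from 0.0528 to 0.0917), Orc2 without Sox9-GFP+ e15.5 replicate 3 or Sox9-GFP+ p23 replicate 1 (-0.31 to -0.27, adjusted p from 0.0722 to 0.0867), and Prim1 without Sox9-GFP+ e15.5 replicate 1 or Sox9-GFP+ p23 replicate 1 or 2 (-0.57 to -0.49, adjusted p from 0.0504 to 0.076). Gins4 was not called without Sox9-GFP+ e15.5 replicate 1 or 2 or 3 or Sox9-GFP+ p23 replicate 1 or 2 (-0.44 to -0.28, adjusted p from 0.061 to 0.175), Pold1 without Sox9-GFP+ e15.5 replicate 1 or 3 or Sox9-GFP+ p23 replicate 1 or 2 (-0.51 to -0.39, adjusted p from 0.071 to 0.123), and Chaf1b without Sox9-GFP+ p23 replicate 2 (-0.69, adjusted p = 0.0848). On the third Sox9-GFP+ array at p23, 46 of the 54 genes had the highest value of their group and the mitosis list summed to 9488, against 5898 and 6459 on the other two. The part of that array in the results was not tested beyond leaving it out, which gave 49 genes called lower, against 27.7% of all genes. Quantile normalization called 44 genes lower over probe sets and 43 over genes, against 23.3% and 22.1% of all genes. In at least 1 of the scalings Gins4, Orc2, Pold1, Prim1, Prim2 and Chaf1b lost their calls, with Orc2 at -0.16 (adjusted p = 0.203) over probe sets.

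**Figure D2:**
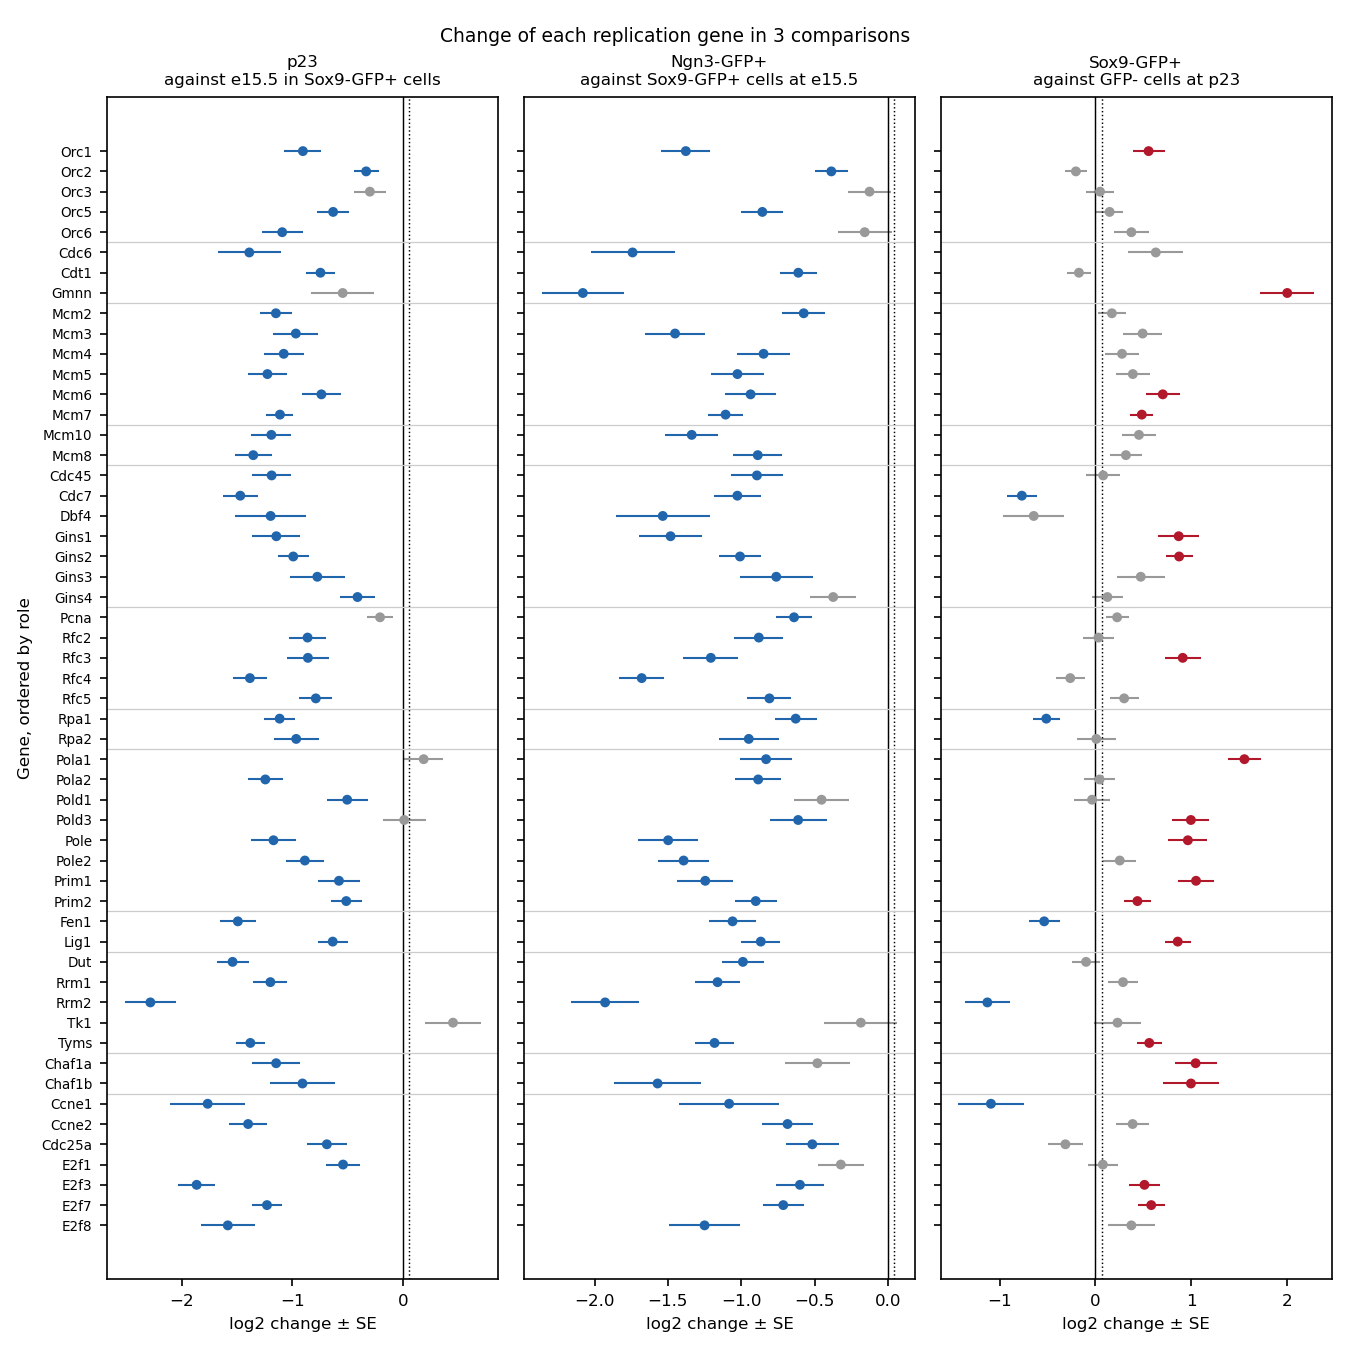
Points are log2 changes with standard error for the 54 genes in 3 comparisons, blue where called lower, red where called higher and grey where not called; the solid line is 0 and the dotted line the median of all genes tested. Blue points fill the first 2 panels, with 48 and 47 genes, while the p23 sorts in the third panel show 18 red and 5 blue points.

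Against e10.5 the replication genes of Sox9-GFP+ cells were also lower at p23. limma called 41 of the 54 genes lower and 2 higher, against 41% of all genes called, 23.3% lower and 17.7% higher, with a median change of -0.80 against -0.01 over all genes. For 42 genes all p23 arrays lay below those of e10.5 and for 2 above, against 28.4% and 22.5% of all genes. The comparison shares its p23 arrays with the one before. All 6 acinar markers were higher at p23 (median 4.92), with sums of 978 to 1642 at e10.5 and 43869 to 51221 at p23. Of the endocrine markers 6 of 8 were lower and 1 higher. Of the leukocyte markers 6 of 13 were higher and 0 lower, and of the endothelial markers 6 of 8 were higher and 1 lower. The part of these cells in the result was not tested. Rrm2 fell by 2.42 ± 0.23 (adjusted p = 1.26e-06), E2f3 by 2.10 ± 0.16 (adjusted p = 1.76e-07) and Ccne1 by 2.07 ± 0.34 (adjusted p = 0.000205). Cdc7 fell by 1.54 ± 0.16 (adjusted p = 2.71e-06). Other regulators that fell were Ccne2 (-1.30 ± 0.17) and E2f7 (-1.15 ± 0.14).

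Of the ring 5 of 6 subunits fell from e10.5 to p23, with changes of -1.28 ± 0.15 for Mcm2, -0.96 ± 0.18 for Mcm5, -0.92 ± 0.12 for Mcm7 and -0.80 ± 0.18 for Mcm4. Mcm8 changed by -1.36 ± 0.17 and Mcm10 by -0.89 ± 0.18. Of the origin recognition subunits Orc6 (-1.07 ± 0.18), Orc1 (-1.06 ± 0.17) and Orc2 (-0.56 ± 0.11) fell. Of the loading genes 2 of 3 fell, Cdt1 by 0.46 ± 0.13 among them, and of the firing genes 6 of 7, with Dbf4 at -1.30 ± 0.32, Cdc45 at -1.09 ± 0.18 and Gins1 at -1.08 ± 0.22. At the fork, Fen1 (-1.20 ± 0.16), Pola2 (-1.17 ± 0.16), Pole (-1.06 ± 0.20), Rfc4 (-0.91 ± 0.15), Rpa1 (-0.72 ± 0.14) and Rpa2 (-0.58 ± 0.20) fell. Of nucleotide supply and chromatin assembly, Dut (-1.31 ± 0.14), Rrm1 (-1.06 ± 0.15), Tyms (-0.93 ± 0.13) and Chaf1a (-1.32 ± 0.22) fell. Each role thus held genes that were lower at p23 than at either embryonic stage. Both higher genes had been among the 6 that were not called against e15.5. Pola1 had values of 9.92, 9.99 and 10.15 on the e10.5 arrays and 10.79, 10.30 and 10.41 on those of p23, without overlap, and rose by 0.48 ± 0.18 (adjusted p = 0.0413). Tk1, thymidine kinase of the salvage pathway, rose by 0.69 ± 0.25 (adjusted p = 0.0401) on the probe set used, and its other probe set fell, as described below.

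Not called were 11 genes, among them Gmnn (0.02 ± 0.28, adjusted p = 0.972), Pcna (-0.16 ± 0.12, adjusted p = 0.316), Mcm6 (-0.37 ± 0.18, adjusted p = 0.111), Prim1 (-0.20 ± 0.19, adjusted p = 0.448) and Pold3 (-0.01 ± 0.19, adjusted p = 0.983). Without the 3 arrays with Hbb-y above 9, which left 1 array at e10.5, the median change was -0.55 against -0.08 over all genes. Leaving out 1 array at a time kept 28 of the 43 calls in every case. Pola1 was not called without Sox9-GFP+ e10.5 replicate 1 or 2 or Sox9-GFP+ p23 replicate 1 or 3 (0.33 to 0.53, adjusted p from 0.0531 to 0.184). Tk1 was not called without Sox9-GFP+ e10.5 replicate 1 or 2 or 3 or Sox9-GFP+ p23 replicate 1 or 2 (0.51 to 0.76, adjusted p from 0.0512 to 0.166). The 13 others that lost a call were Cdc25a, Cdc6, Cdt1, E2f1, E2f8, Gins3, Mcm3, Pold1, Pole2, Rfc2, Rfc3, Rfc5 and Rpa2. For example, Cdc6 was not called without Sox9-GFP+ e10.5 replicate 2 or Sox9-GFP+ p23 replicate 2 (-0.86 to -0.83, adjusted p from 0.0575 to 0.0615) and Mcm3 was not called without Sox9-GFP+ e10.5 replicate 1 or 2 or Sox9-GFP+ p23 replicate 1 or 2 (-0.59 to -0.54, adjusted p from 0.0674 to 0.0912). Under at least 1 of the scalings Cdc25a, Pold1, Pole2, Rfc2, Rfc5, Rpa2 and Tk1 lost their calls.

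**Figure D3:**
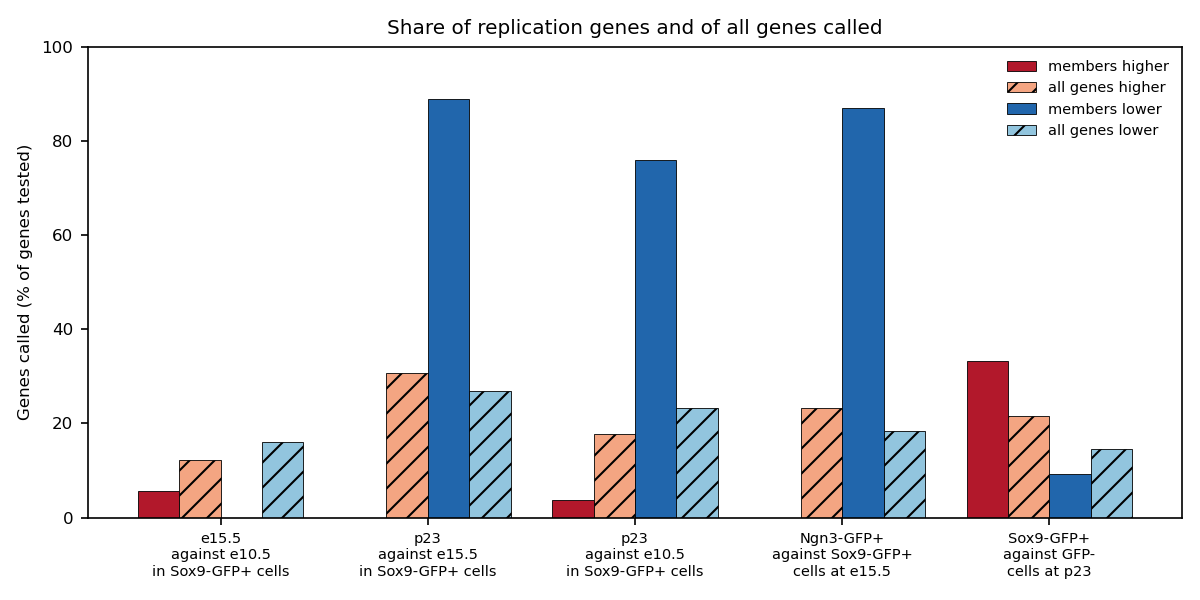
Bars give the percentage of genes called higher (red) or lower (blue) in each comparison, filled for the 54 replication genes and hatched for all 16883 genes tested. The filled blue bars stand far above the hatched ones in both p23 comparisons and in the Ngn3-GFP+ comparison, while at p23 between the sorts the bars of both kinds are closer.

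What set Ngn3-GFP+ cells apart from Sox9-GFP+ cells of the same stage? The former were poorer in replication transcripts. limma called 47 of the 54 genes lower and 0 higher, against 41.7% of all genes called, 18.4% lower and 23.3% higher, and the median change was -0.90 against 0.04 over all genes. For 48 genes every Ngn3-GFP+ array lay below every Sox9-GFP+ array and for 0 above, against 24.3% and 31.8% of all genes. Against a 1.5-fold change (limma's treat) 11 of the 54 genes were lower (20.4%), compared with 0.912% of all genes. The e15.5 Sox9-GFP+ arrays also serve the comparison with p23. Median centring moved the median of all genes to -0.14, the counts over all genes from 3933 higher and 3101 lower to 1727 and 4396, and the count of replication genes called lower to 51. Quantile normalization called 42 lower over probe sets and 39 over genes, against 13.9% and 11.7% of all genes.

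Geminin showed the largest difference. Gmnn stood at 9.15, 8.04 and 7.73 in Ngn3-GFP+ cells, below the 10.38, 10.33 and 10.45 of Sox9-GFP+ cells by 2.08 ± 0.28 (adjusted p = 0.000382), 4.23-fold. Cdc6 stood at 8.26, 7.07 and 8.37, with the second array lowest, and fell by 1.74 ± 0.29 (adjusted p = 0.00106). Cdt1 stood at 7.73, 7.95 and 7.85 and fell by 0.61 ± 0.13 (adjusted p = 0.00401). Of the origin recognition subunits, Orc1 fell by 1.38 ± 0.17 (adjusted p = 0.000178), Orc5 by 0.86 ± 0.14 and Orc2 by 0.39 ± 0.11, while Orc3 (10.57, 10.59 and 10.12) and Orc6 (10.25, 10.07 and 10.13) were not called, at -0.13 ± 0.14 (adjusted p = 0.497) and -0.16 ± 0.18 (adjusted p = 0.503). Orc6 thus stood near its Sox9-GFP+ level of 10.47, 10.17 and 10.30 in Ngn3-GFP+ cells and more than 1 log2 unit lower in Sox9-GFP+ cells at p23 (8.97, 9.24 and 9.44).

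All 6 ring subunits were called lower. On the Ngn3-GFP+ arrays Mcm2 was at 9.11, 9.43 and 9.19 and Mcm3 at 9.02, 8.26 and 8.97. Mcm4 stood at 9.71, 10.37 and 9.63 and Mcm5 at 8.88, 8.83 and 9.20. Mcm6 stood at 10.39, 10.27 and 10.53 and Mcm7 at 9.95, 9.80 and 9.89. Mcm3 had the largest difference of the ring, -1.45 ± 0.20, and Mcm2 the smallest, -0.57 ± 0.15. Mcm7 fell by 1.11 ± 0.12 (adjusted p = 1e-04), Mcm5 by 1.03 ± 0.18 and Mcm6 by 0.94 ± 0.18. Mcm10 and Mcm8 fell by 1.34 ± 0.18 and 0.89 ± 0.17. Of the firing genes, Dbf4 fell by 1.53 ± 0.32 (adjusted p = 0.00402) with a wide spread of 8.66, 7.42 and 9.22, and Gins1 by 1.48 ± 0.22 (adjusted p = 0.000605). Cdc7 and Gins2 fell by 1.03 ± 0.16 and 1.01 ± 0.14. Gins4, the last subunit of its complex, was not called (10.88, 10.85 and 10.38; -0.37 ± 0.16, adjusted p = 0.0714), although its arrays lay below those of Sox9-GFP+ cells.

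The clamp and all 4 subunits measured of its loader were lower. Pcna stood at 11.95, 11.52 and 11.81, below the Sox9-GFP+ arrays by 0.64 ± 0.12 (adjusted p = 0.00238), and Rfc4 at 8.16, 7.94 and 8.20, a fall of 1.68 ± 0.15 (adjusted p = 2.62e-05). Rfc3 fell by 1.21 ± 0.19, Rfc2 by 0.88 ± 0.17 and Rfc5 by 0.81 ± 0.15. Rpa2 and Rpa1 fell by 0.95 ± 0.20 and 0.63 ± 0.14, and Fen1 and Lig1 by 1.06 ± 0.16 and 0.87 ± 0.13. All polymerase and primase genes but Pold1 were called, with Pole at -1.50 ± 0.20, Pole2 at -1.39 ± 0.17 and the primase subunits Prim1 and Prim2 at -1.25 ± 0.19 and -0.90 ± 0.14. Pold1, the catalytic subunit of polymerase delta, stood at 7.69, 8.35 and 8.16 against 8.74, 8.30 and 8.52 and was not called (-0.45 ± 0.19, adjusted p = 0.0638). Pola1 stood at 9.53, 9.16 and 9.76 and fell by 0.83 ± 0.18 (adjusted p = 0.00432), and Pold3 at 9.76, 9.16 and 10.04 and fell by 0.61 ± 0.19 (adjusted p = 0.0235).

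On the Ngn3-GFP+ arrays Rrm2 was at 8.79, 8.24 and 8.39 and fell by 1.93 ± 0.23 (adjusted p = 0.000169). Tyms fell by 1.18 ± 0.13 (adjusted p = 9.85e-05), Rrm1 by 1.16 ± 0.15 (adjusted p = 0.000324) and Dut by 0.99 ± 0.14 (adjusted p = 0.000592). Chaf1b fell by 1.57 ± 0.29 (adjusted p = 0.00231), while Chaf1a stood at 8.79, 9.71 and 9.14 with an array inside the Sox9-GFP+ range and was not called (-0.48 ± 0.22, adjusted p = 0.0909). Of the regulators, E2f8 stood at 8.47, 9.14 and 8.54 and E2f7 at 8.10, 7.90 and 8.30, with falls of 1.25 ± 0.24 and 0.71 ± 0.14. Ccne1 stood at 7.37, 6.69 and 8.25, the widest spread of the cyclins, and Ccne2 at 8.54, 8.40 and 8.37, with falls of 1.08 ± 0.34 and 0.68 ± 0.17. E2f1 stood at 8.72, 8.16 and 8.55 and was not called (-0.32 ± 0.15, adjusted p = 0.107).

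Leaving out 1 array at a time kept 42 of the 47 calls in every case. Ccne1 was not called without Sox9-GFP+ e15.5 replicate 1 or 3 or Ngn3-GFP+ e15.5 replicate 1 or 2 (-1.11 to -0.71, adjusted p from 0.0516 to 0.0933), and Cdc25a without Sox9-GFP+ e15.5 replicate 1 or 2 or 3 or Ngn3-GFP+ e15.5 replicate 2 (-0.55 to -0.31, adjusted p from 0.065 to 0.152). Gins3 was not called without Sox9-GFP+ e15.5 replicate 1 or 2 or 3 or Ngn3-GFP+ e15.5 replicate 3 (-0.81 to -0.53, adjusted p from 0.0521 to 0.105), and Pold3 without Sox9-GFP+ e15.5 replicate 1 or 3 or Ngn3-GFP+ e15.5 replicate 2 (-0.63 to -0.36, adjusted p from 0.0592 to 0.0939). Orc2 was not called without Sox9-GFP+ e15.5 replicate 3 or Ngn3-GFP+ e15.5 replicate 1 (-0.36 to -0.34, adjusted p from 0.051 to 0.0647). With quantile normalization over probe sets, over genes or both, Orc2, Gins3, Pold3, E2f3, Cdc25a, Ccne1, Ccne2 and Mcm2 lost their calls, the last at -0.35 (adjusted p = 0.0764) over genes. Marker lists differed between these sorts too. Of the acinar markers 5 of 6 were lower in Ngn3-GFP+ cells (median -1.24), with summed intensity of 13239 to 15624 against 18560 to 26073. Of the endocrine markers 5 of 8 were higher and 0 lower, with sums of 51512 to 58850 against 28388 to 38121. Of the leukocyte markers 3 of 13 and of the endothelial markers 2 of 8 were higher, with 0 lower. The part of these cells in the result was not tested.

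**Figure D4:**
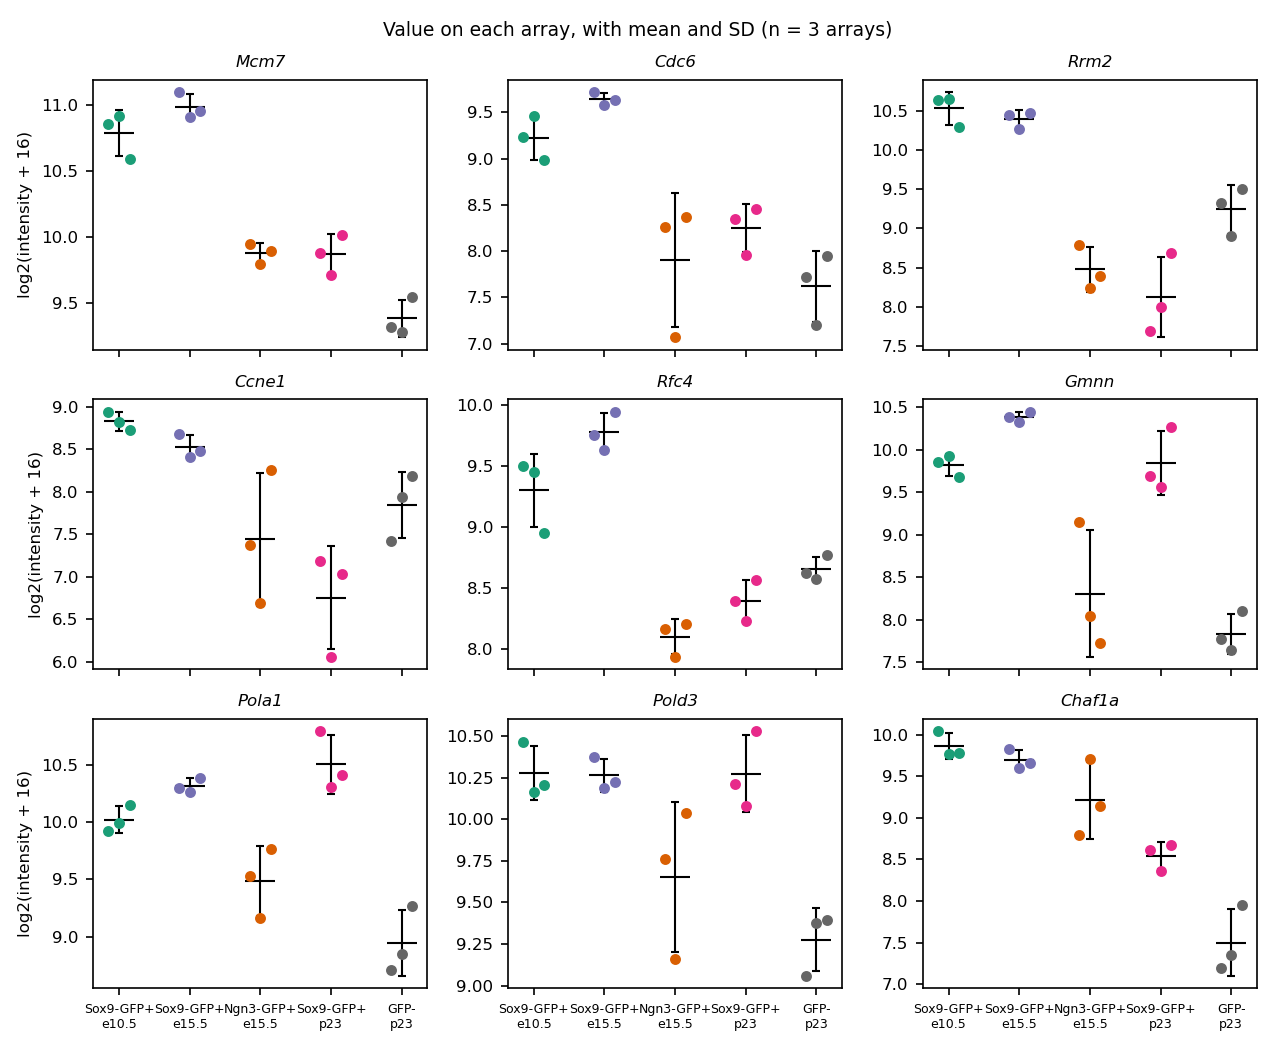
Points are log2(intensity + 16) on each array for 9 genes, picked after their values were seen, and bars give the mean and SD (n = 3 arrays) in the 5 groups. Mcm7, Cdc6, Rrm2, Ccne1 and Rfc4 are low in the 3 right-hand groups, whereas Gmnn, Pola1 and Pold3 at p23 stay near their embryonic level in Sox9-GFP+ cells and are low in GFP- cells.

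How did Sox9-GFP+ cells differ from the other cells of the pancreas at p23? Most of the replication genes were not called. limma called 18 of the 54 genes higher in Sox9-GFP+ cells (33.3%) and 5 lower (9.26%), and 31 were not called. Of all genes 36% were called, 21.5% higher and 14.5% lower. The share called higher was thus above that of all genes, and the share called lower was below it. In limma's test against a 1.5-fold change (treat) both were below, with 3.7% higher and 0 lower, against 7.5% and 4.64% of all genes. The median change was 0.31 against 0.07 over all genes, and the arrays of 22 genes lay above and of 8 below those of GFP- cells without overlap, against 27.6% and 19.7% of all genes. The GFP- arrays were those rich in leukocyte transcripts, with 12 of 13 leukocyte markers higher in them. Of the endothelial markers 6 of 8 were higher in GFP- cells (sums of 3956 to 4605 against 1295 to 1585), and of the mesenchyme markers 5 of 7. The part of these cell types in each difference was not tested. Median centring changed the counts over all genes from 3622 higher and 2455 lower to 2904 and 2811, and those of the replication genes to 15 and 5.

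Gmnn had the largest difference, with GFP- arrays at 7.77, 7.64 and 8.10 and Sox9-GFP+ arrays at 9.69, 9.56 and 10.27, 2.01 ± 0.28 (adjusted p = 5.28e-05) or 4.02-fold. Pola1 stood at 10.79, 10.30 and 10.41 and 8.71, 8.85 and 9.26, a difference of 1.56 ± 0.18 (adjusted p = 6.5e-06). Prim1, the catalytic primase subunit, stood at 9.93, 9.76 and 10.16 and 8.47, 8.98 and 9.25, a difference of 1.05 ± 0.19 (adjusted p = 0.000486). Pold3, Pole and Prim2 were higher as well, so that 5 of the 8 polymerase and primase genes were called higher and 0 lower, Prim2 under none of the 4 scalings tried. Pold3 stood at 9.06, 9.38 and 9.39 in GFP- cells, 1.00 ± 0.19 below its Sox9-GFP+ level, and Pole differed by 0.97 ± 0.20. Both subunits of the chromatin assembly factor were higher, Chaf1a by 1.05 ± 0.22 (adjusted p = 0.00161) and Chaf1b by 1.00 ± 0.29 (adjusted p = 0.0151). The Sox9-GFP+ arrays of Chaf1a gave 8.62, 8.36 and 8.67, and the GFP- arrays gave 7.19, 7.35 and 7.95. Gins1 (0.87 ± 0.22), Gins2 (0.88 ± 0.14), Rfc3 (0.91 ± 0.19) and Lig1 (0.86 ± 0.13) were also called higher, as were Tyms (0.56 ± 0.13) and Orc1 (0.56 ± 0.17).

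Of the ring, Mcm6 and Mcm7 were higher in Sox9-GFP+ cells and the other 4 were not called. Mcm6 stood at 9.66, 9.66 and 10.35 in GFP- cells (0.71 ± 0.18, adjusted p = 0.00553) and Mcm7 at 9.32, 9.29 and 9.55 (0.49 ± 0.12, adjusted p = 0.00582). Mcm2 stood at 8.34, 8.57 and 8.57 and Mcm3 at 8.42, 8.70 and 9.09. Mcm4 stood at 9.13, 9.39 and 9.65 and Mcm5 at 8.01, 8.49 and 8.63. The 4 that were not called differed by 0.17 ± 0.15 for Mcm2 to 0.49 ± 0.20 for Mcm3, all in the same direction. Cdc6 stood at 7.72, 7.20 and 7.94 (0.63 ± 0.29, adjusted p = 0.104), Cdt1 at 7.81, 7.78 and 8.04 (-0.17 ± 0.13, adjusted p = 0.334) and Pcna at 11.91, 11.90 and 12.07 (0.23 ± 0.12, adjusted p = 0.165), none of them called.

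The 5 genes lower in Sox9-GFP+ than in GFP- cells were Rrm2, Ccne1, Cdc7, Fen1 and Rpa1. Rrm2 stood at 9.33, 8.90 and 9.51 in GFP- cells, above the 7.68, 7.99 and 8.69 of Sox9-GFP+ cells, a difference of -1.13 ± 0.23 (adjusted p = 0.00137). Ccne1 stood at 7.42, 7.94 and 8.18 in GFP- cells against 7.18, 6.06 and 7.03, a difference of -1.09 ± 0.34 (adjusted p = 0.0211). Rrm2, E2f3 and Ccne1 also had the largest falls of the 54 from e15.5 to p23. Cdc7 stood at 8.06, 8.09 and 8.47 against 7.47, 7.30 and 7.55 (-0.77 ± 0.16, adjusted p = 0.00148). Fen1 stood at 9.32, 8.97 and 8.89 against 8.53, 8.27 and 8.78 (-0.53 ± 0.16, adjusted p = 0.0176), and Rpa1 at 8.85, 9.18 and 9.28 against 8.47, 8.56 and 8.74 (-0.51 ± 0.14, adjusted p = 0.0109). In all 5 the groups did not overlap. Of the regulators, E2f7 and, as deposited, E2f3 were higher in Sox9-GFP+ cells, the call of E2f3 being lost under each scaling tried. E2f7 stood at 6.84, 7.23 and 6.92 in GFP- cells (0.58 ± 0.14, adjusted p = 0.004), E2f8 at 8.05, 7.49 and 8.49, Ccne2 at 7.39, 6.84 and 7.76 and E2f1 at 8.42, 8.20 and 7.91, the last 3 not called.

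Without the 2 Sox9-GFP+ arrays with Ptprc above 9, which leaves 1 array in that group, the median change was 0.29 against 0.08 over all genes. On the third GFP- array 42 of the 54 genes had the highest value of their group. Without it 21 were called higher and 3 lower, against 19.6% and 12.6% of all genes. Leaving out 1 array at a time kept 16 of the 23 calls in every case. Ccne1 was not called without Sox9-GFP+ p23 replicate 2 or GFP- p23 replicate 2 or 3 (-1.04 to -0.74, adjusted p from 0.0644 to 0.113), Fen1 without Sox9-GFP+ p23 replicate 2 or GFP- p23 replicate 1 (-0.41, adjusted p from 0.0895 to 0.0908) and Rpa1 without GFP- p23 replicate 3 (-0.42, adjusted p = 0.0519). Chaf1b was not called without Sox9-GFP+ p23 replicate 3 or GFP- p23 replicate 1 or 2 (0.80 to 0.93, adjusted p from 0.0556 to 0.0752) and Orc1 without Sox9-GFP+ p23 replicate 1 or GFP- p23 replicate 1 (0.39 to 0.47, adjusted p from 0.0713 to 0.0921). Prim2 was not called without Sox9-GFP+ p23 replicate 3 or GFP- p23 replicate 2 (0.28 to 0.33, adjusted p from 0.106 to 0.136) and E2f3 without Sox9-GFP+ p23 replicate 1 or 3 or GFP- p23 replicate 1 or 3 (0.36 to 0.50, adjusted p from 0.0608 to 0.113). Prim2 and E2f3 lost their calls under each of the 4 scalings as well, with adjusted p from 0.0717 to 0.118 and from 0.0714 to 0.127, and Orc1 under both centrings (0.0603 and 0.0647).

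The difference between the sorts at e15.5 was set against the difference between the sorts at p23 in the same fit, as Ngn3-GFP+ minus Sox9-GFP+ less GFP- minus Sox9-GFP+. These 2 differences share no array. limma called 24 of the 54 genes lower and 1 higher, against 45.3% of all genes called, 18.3% lower and 27.1% higher, with a median of -0.58 against 0.18 over all genes. Rrm2 differed the most, with Ngn3-GFP+ cells below their Sox9-GFP+ counterparts by 1.93 ± 0.23 and GFP- cells above theirs (-3.06 ± 0.33, adjusted p = 8.1e-06). Dbf4 (-2.18 ± 0.45, adjusted p = 0.00197), Ccne1 (-2.17 ± 0.48, adjusted p = 0.00305), Rfc4 (-1.94 ± 0.22, adjusted p = 1.13e-05), Cdc7 (-1.79 ± 0.23, adjusted p = 3.51e-05) and Fen1 (-1.59 ± 0.23, adjusted p = 0.000111) followed. Gmnn was lower in Ngn3-GFP+ cells and in GFP- cells, each against the Sox9-GFP+ cells of its stage, and the difference of these was not called (-0.07 ± 0.40, adjusted p = 0.893). Pola1 was the gene called the other way (0.73 ± 0.25, adjusted p = 0.0289), since GFP- cells were further below Sox9-GFP+ cells than Ngn3-GFP+ cells were. Pola1 was not called here without Sox9-GFP+ e15.5 replicate 1 or 2 or Ngn3-GFP+ e15.5 replicate 1 or 3 or Sox9-GFP+ p23 replicate 1 or GFP- p23 replicate 1 or 2 (0.58 to 0.72, adjusted p from 0.0508 to 0.076). Cdc6 was not called without Sox9-GFP+ e15.5 replicate 1 or 2 or 3 or Ngn3-GFP+ e15.5 replicate 2 or Sox9-GFP+ p23 replicate 1 or 2 or GFP- p23 replicate 1 or 3 (-1.16 to -0.69, adjusted p from 0.0549 to 0.0912), and Cdc45 without Sox9-GFP+ p23 replicate 2 (-0.72, adjusted p = 0.0504). Median centring, under which Pola1 was not called (0.46, adjusted p = 0.143), gave 32 genes lower and 0 higher and changed the counts over all genes from 4567 higher and 3084 lower to 2285 and 4099.

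The probe sets of a gene agreed for Pcna and disagreed for Tk1. Of the 55 genes 3 had several probe sets, and the one with the highest mean was used. The 2 Tk1 probe sets share 6 of the 8 transcript accessions listed for them, so both are labelled for the same gene. On the set used, Tk1 was at 9.20, 9.34 and 9.49 at e10.5, 9.58, 9.59 and 9.56 at e15.5 and 10.37, 10.04 and 9.67 at p23. On the other set the e10.5 arrays gave 9.43, 9.20 and 9.27, those of e15.5 gave 9.88, 9.70 and 9.46 and those of p23 gave 8.10, 7.98 and 8.71. The first was higher at p23 than at e15.5 by 0.45 ± 0.25 (adjusted p = 0.134), not called, and the second fell by 1.41 ± 0.21 (adjusted p = 0.000108). Against e10.5 the first rose by 0.69 ± 0.25 (adjusted p = 0.0401) and the second fell by 1.04 ± 0.21 (adjusted p = 0.00108). In Ngn3-GFP+ cells the set used was at 9.19, 10.10 and 8.88 and the other at 8.62, 9.25 and 8.81, changes of -0.18 ± 0.25 (adjusted p = 0.566) and -0.79 ± 0.21 (adjusted p = 0.0113). The p23 arrays lay above those of e15.5 on the set used and below them on the other, without overlap, and the direction of Tk1 at p23 is therefore not settled by these arrays. Both sets of E2f3 fell from e15.5 to p23, by 1.87 on the set used and 1.32 on the other, but the other was not called between the p23 sorts (0.41, adjusted p = 0.218). Both sets of Pcna changed by -0.21 from e15.5 to p23. Near-identical copies of a gene can share signal, which was not tested.

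**Figure D5:**
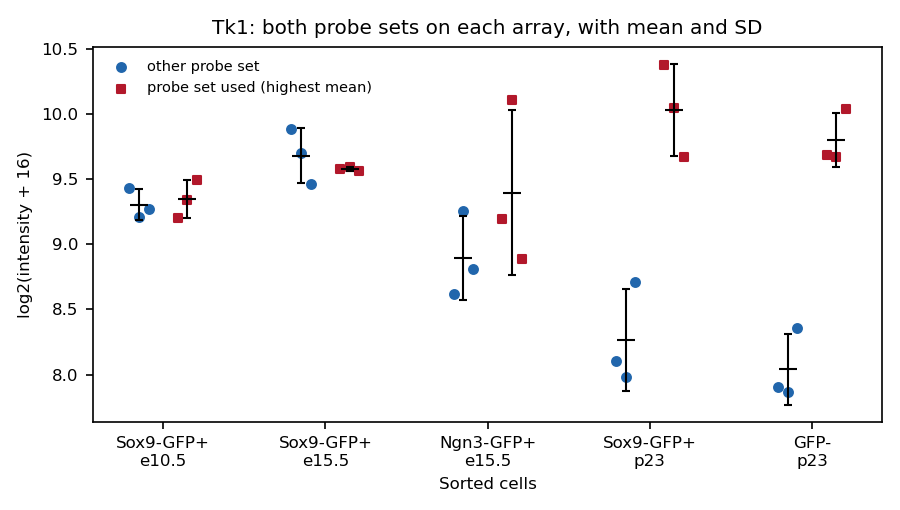
Points are log2(intensity + 16) of the 2 Tk1 probe sets on each array, red squares for the set used and blue circles for the other, with mean and SD (n = 3 arrays). From e15.5 to p23 in Sox9-GFP+ cells the squares lie higher, from 9.67 upward at p23, and the circles lower, at 8.71 or below.

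Other genes of the pathway, from lists of replisome helpers, checkpoint, histone supply, nucleotide synthesis and cell cycle regulators, were counted in the same fit. Of 67 tested, 43 fell and 2 rose from e15.5 to p23, against 26.8% and 30.7% of all genes. From e10.5 to p23 42 fell and 5 rose, against 23.3% and 17.7% of all genes. In Ngn3-GFP+ cells 47 were lower and 0 higher, against 18.4% and 23.3% of all genes. Fbxo5, an inhibitor of the anaphase-promoting complex, fell by 2.23 ± 0.21 (adjusted p = 2.18e-06) from e15.5 to p23. Dna2, a nuclease of Okazaki fragments, fell by 2.20 ± 0.23 (adjusted p = 5.26e-06) and Skp2, which targets the inhibitor p27 for destruction, by 2.10 ± 0.21 (adjusted p = 3.13e-06). The 2 that rose were Tfdp2, a partner of E2F proteins, by 0.86 ± 0.12 (adjusted p = 7.11e-05), and Rbl2, a repressor of the retinoblastoma family, by 0.58 ± 0.18 (adjusted p = 0.0146). Rbl2 also rose from e10.5 to e15.5 (1.35 ± 0.18, adjusted p = 0.000161), where 6 of the 67 were called higher and 1 lower, against 12.2% and 16% of all genes. It was at 7.83, 7.32 and 7.42 at e10.5, 8.73, 8.94 and 8.94 at e15.5 and 9.09, 9.63 and 9.64 at p23, a rise opposite to most of the pathway.

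Between the p23 sorts, 10 of the 67 were higher and 11 lower in Sox9-GFP+ cells, against 21.5% and 14.5% of all genes. Samhd1, which degrades dNTPs, was lower by 2.06 ± 0.17 (adjusted p = 2.31e-07), and Wee1, a kinase that delays mitosis, was higher by 1.75 ± 0.32 (adjusted p = 0.000509). In Ngn3-GFP+ cells the largest falls were those of Fbxo5 (-1.88 ± 0.21), the phosphatase Cdc25c (-1.85 ± 0.30) and Ticrr, a factor of origin firing (-1.70 ± 0.16). A mitosis list showed the same directions: 17 of 17 tested were lower in each of the p23 comparisons of Sox9-GFP+ cells and in Ngn3-GFP+ cells, with medians of -1.76 against e15.5, -1.38 against e10.5 and -1.41 in Ngn3-GFP+ cells. Between the p23 sorts 2 of the 17 were higher and 0 lower in Sox9-GFP+ cells. None of the 17 was thus called lower beside the lower Rrm2, Ccne1, Cdc7, Fen1 and Rpa1.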

How the data were processed

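RNA (20 ng a reaction, per the labels' protocols) of 5 sorted populations was amplified and read on Affymetrix gene arrays, 15 in all, n = 3 a group. Per the submitters' processing notes, the deposited values are intensity summarised by PLIER in Affymetrix Expression Console 1.1. No source used here states a scaling between arrays, and array medians ran from 165.5 to 211.7. The groups were those of the labels. Of 35557 probe sets, 21789 had 1 gene symbol, 1621 several and 12147 none in the platform annotation, whose names can be old; 21698 matched RefSeq by gene identifier and 0 symbols changed. For each of 19938 genes the probe set with the highest mean was used, and genes above the 30th percentile of all values (97.8) on at least 3 arrays were tested.

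log2 of the deposited intensity + 16 was fitted with limma 3.58.1 (R 4.3.3; lmFit and eBayes) on all 15 arrays, 1 mean a group, so that the spread is pooled over 5 groups. Fold changes understate dim genes because of the added 16. p-values were Benjamini-Hochberg adjusted over the 16883 genes of each comparison. The fit was tested on simulated data. Alternatives were other offsets, scalings, filters, probe set rules, variance models, a replicate block, treat and leaving out arrays. Scaling over probe sets was planned, and its values are those quoted unless genes are named. Scaling over genes was not planned, and both were run after a first output had been seen. The 55 genes, the lists and the comparisons were chosen with earlier results of these data known. By the naming rule, all 55 genes are named, with values for up to 4 called genes of each role by size of change and for those against the rest; other pathway genes are named for up to 3 largest called changes a direction. Promoter letters were searched in Python 3.11.15.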

Additional observations from a re-analysis of the deposited data

Results flagged for a closer look

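For 25 of the 54 genes the difference between the sorts at e15.5 (Ngn3-GFP+ minus Sox9-GFP+) and that at p23 (GFP- minus Sox9-GFP+) differed by limma's test of the difference itself, at a Benjamini-Hochberg adjusted p of 0.05. The same test called 45.3% of all genes, so the total was near that of all genes. By direction 44.4% of the 54 genes were lower and 1.85% higher, against 18.3% and 27.1% of all genes. On the log2 scale the first less the second was -3.06 for Rrm2, -2.18 for Dbf4, -2.17 for Ccne1, -1.94 for Rfc4, -1.79 for Cdc7 and -1.59 for Fen1. It was -1.14 for Rpa1 and for Pole2, -1.11 for Cdc6, -1.09 for Dut, -0.96 for Mcm3 and -0.94 for Rpa2. It was -0.88 for Mcm10, -0.87 for Rrm1, -0.85 for Rfc2, -0.84 for Pola2, -0.83 for Cdc25a, -0.82 for Orc1 and -0.81 for Cdc45. It was -0.78 for Cdt1, -0.71 for Orc5, -0.62 for Mcm7 and for Tyms, and -0.59 for Orc2. Pola1, at 0.73, was the gene of the 25 with a positive value. The sorts at e15.5 and at p23 differ in age and in which cells are compared, and the GFP- arrays hold the leukocyte transcripts described above, whose part in these differences was not tested.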

How the results depend on the processing

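Over the 324 changes (54 genes, 6 contrasts), of which 189 were called, no change turned its sign with a call except Tk1 on its other probe set alone (-1.41 from e15.5 to p23 and -1.04 from e10.5 to p23, against 0.45 and 0.69). Offset 1 and both changes of the filter lost 0 calls, quantile normalization 17, median centring 10, the mean of all probe sets 1, the groups compared alone 7 and array weights 4. The test against a 1.5-fold change (treat) lost 137, leaving 0, 20, 13, 11, 2 and 6 genes called in the order of the report. From e10.5 to e15.5 the 3 genes called became 8 with median centring and 5 with array weights, whose estimation stopped before it converged. A fit of these groups alone called 16 (15 higher, 1 lower), against 21.4% of all genes higher and 21.9% lower. Quantile normalization gave 2 there (1 higher, 1 lower), and changed the counts over all genes to 1708 higher and 1017 lower, and to 1730 and 2342 in Ngn3-GFP+ cells. Scaling over genes in place of probe sets gave 3 with centring. Leaving out 1 array gave 0 to 5 genes from e10.5 to e15.5 and 43 to 49 from e15.5 to p23. It gave 30 to 44 from e10.5 to p23 and 42 to 47 in Ngn3-GFP+ cells. Between the p23 sorts it gave 19 to 24, and 23 to 30 for the difference of the sorts. Of the 54 genes 79.6% to 90.7% were then lower from e15.5 to p23, against 21.3% to 27.7% of all genes. From e10.5 to p23 the range was 53.7% to 79.6% lower, against 19.2% to 23%. In Ngn3-GFP+ cells it was 77.8% to 87% lower, against 11% to 18.8%. For the difference of the sorts it was 40.7% to 53.7% lower, against 15% to 19.3%. Without the 3 arrays with Hbb-y above 9, 18 genes were called from e10.5 to p23, and without the 2 with Ptprc above 9, 14 between the p23 sorts; both were added after seeing the data, as were the scalings over genes and the single probe sets. The replicate block lost 4 calls, with 3, 47, 41, 46, 23 and 25 genes called. Of these 3, 0, 1, 0, 18 and 1 were higher, and 0, 47, 40, 46, 5 and 24 lower. Of all genes it called 10.4%, 28.6%, 16.6%, 20.1%, 20.3% and 24.3% higher in that order. It called 11.5%, 25.4%, 21.9%, 16.9%, 13.6% and 17.2% of all genes lower. Deviations from the group mean correlated at over 0.1 in 3 of 30 pairs of same-numbered arrays (-0.49 to 0.20). In pairs of different number and group they correlated at -0.18 to 0.48. The deviations of 3 arrays sum to 0, so these values cannot show whether equal numbers mark arrays handled together. With 3 arrays a group an exact permutation test of single genes cannot go below p = 0.10.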
